A study of Mus musculus with 6 samples.

Results

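Myelin and mature oligodendrocyte genes were followed in motor neuron RNA of the mouse brainstem. The group held 9 of the 18193 genes that the platform annotation names singly, Mbp, Mog, Mag, Mobp, Cnp, Cldn11, Mal, Ugt8a and Fa2h, and its members were all 24 probe sets of the array, of 45037 in all, that the platform annotation assigned to exactly 1 of these genes. RNA samples from 3 wild type (WT) and 3 SOD1 mouse preparations were measured, 1 array each. SOD1 is the gene of copper-zinc superoxide dismutase. The sources used here name neither the allele that the SOD1 mice carried, nor its promoter, the strain, the age or the way the neurons were collected. Whether the 3 samples of a genotype are separate animals is not labelled either, and the p-values therefore rest on a spread between samples that may be partly technical.

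Oligodendrocytes are the glial cells that wrap axons of the central nervous system in myelin, a stack of compacted membrane rich in galactolipids and in a small set of proteins. Some of these proteins hold the compact layers together, others sit in the non-compact channels, on the outer surface or facing the axon, and enzymes of the endoplasmic reticulum make the lipids. Motor neurons do not make myelin, but their cell bodies and axons lie among oligodendrocytes in the brainstem. In a bulk RNA sample, more cells of a type and more RNA per cell cannot be told apart.

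Most myelin probe sets had higher estimates in SOD1, by up to about the size of a doubling, but 0 of the 22 that were kept by the filter on low signal passed the test over the whole array. The clearest were Ugt8a, the enzyme of galactosylceramide synthesis, at 2.01-fold, Cldn11, a tight junction protein of the myelin sheath, at 2.12-fold, and Cnp, a protein of non-compact myelin, at 1.35-fold, and all 3 SOD1 arrays lay above all 3 WT arrays for each of them. Fa2h, which hydroxylates the fatty acids of myelin lipids, stood on the other side, at 1.38-fold lower in SOD1 with overlapping groups. The test was limma on log2 signal with Benjamini-Hochberg adjustment over 27022 probe sets at a threshold of 0.05, and it called 0.185% of them (50), 0.0629% as higher and 0.122% as lower. At an unadjusted p under 0.05, 9 of the 22 myelin probe sets were higher in SOD1, against 7.1% of all probe sets, and 0 were lower, against 7.56%. With the Xist signal, a marker of female cells, as a covariate, 4 of the 22 were higher, against 6.11% of all. The estimate was above 0 for 20 of 22, against 49.5% of all. The same 22 probe sets come from 9 genes and share transcripts, so they are not 22 separate observations.

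All values below are log2 signals after quantile normalisation with 16 added, unless called deposited, and a change is the SOD1 mean less the WT mean, ± SE, from 3 arrays of each genotype. Of the 24 probe sets, 22 were kept by the filter, and these 22 lay above the background level of 7.21 to 7.61 on every array. The 2 not kept, 1 of Mobp and 1 of Ugt8a, were at or below background on all 6 arrays and give no level. Of 18 markers of the labelled cell type, motor neurons, 16 were on the array and 15 were kept, and Isl1, a motor neuron transcription factor, was at 15.05 ± 0.09 in WT (SD, n = 3). The kept markers differed widely in WT level, from Isl2 at 9.30 ± 0.17 and Chat at 9.43 ± 0.40 to Nefl at 17.39 ± 0.03 (SD, n = 3). The median deposited signal of an array ran from 301 to 315 in WT and from 267 to 300 in SOD1. Every SOD1 array thus lay below every WT array, so the choice of scaling bears on the genotype contrast. Precision is limited by there being 6 arrays. The Xist signal was 12.83 and 12.91 on SOD1 replicates 1 and 2 and between 5.71 and 7.07 on the other 4 arrays, so sex may be partly confounded with genotype. All changes given with Xist as a covariate therefore rest largely on SOD1 replicate 3, the only SOD1 array with a low Xist signal.

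The promoters of the 4 genes whose highest probe set had all SOD1 arrays above all WT arrays (Ugt8a, Cldn11, Cnp and Mobp) are shown because their arrays separated the genotypes. Each is the 250 bases before the annotated start, from RefSeq on GRCm38.p6, 5′ to 3′ on the gene's strand, and 7 of the 9 members had an entry in that table. Capitals mark matches, on either strand, to the core of the SOX family (ACAAAG or ACAATG), to which the oligodendrocyte factor Sox10 belongs, and to the motif of the myelin regulatory factor Myrf (CTGGCAC or CTGGTAC) that switches on myelin genes.
Ugt8a, chr3:125938653-125938902, minus strand: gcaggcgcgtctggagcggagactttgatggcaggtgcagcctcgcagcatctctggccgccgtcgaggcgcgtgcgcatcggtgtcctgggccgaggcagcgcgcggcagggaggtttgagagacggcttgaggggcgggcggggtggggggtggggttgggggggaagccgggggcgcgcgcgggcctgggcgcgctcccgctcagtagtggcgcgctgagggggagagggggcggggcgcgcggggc
Cldn11, chr3:31149670-31149919, plus strand: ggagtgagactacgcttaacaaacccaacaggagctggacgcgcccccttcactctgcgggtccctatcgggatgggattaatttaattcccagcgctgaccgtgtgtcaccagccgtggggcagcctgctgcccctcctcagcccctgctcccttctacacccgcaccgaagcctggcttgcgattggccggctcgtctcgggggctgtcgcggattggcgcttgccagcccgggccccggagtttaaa
Cnp, chr11:100574689-100574938, plus strand: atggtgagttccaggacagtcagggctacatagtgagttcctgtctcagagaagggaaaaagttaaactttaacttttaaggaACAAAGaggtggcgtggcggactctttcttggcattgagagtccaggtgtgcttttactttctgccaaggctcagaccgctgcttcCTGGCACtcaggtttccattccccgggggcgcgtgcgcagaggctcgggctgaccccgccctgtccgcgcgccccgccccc
Mobp, chr9:120149492-120149741, plus strand: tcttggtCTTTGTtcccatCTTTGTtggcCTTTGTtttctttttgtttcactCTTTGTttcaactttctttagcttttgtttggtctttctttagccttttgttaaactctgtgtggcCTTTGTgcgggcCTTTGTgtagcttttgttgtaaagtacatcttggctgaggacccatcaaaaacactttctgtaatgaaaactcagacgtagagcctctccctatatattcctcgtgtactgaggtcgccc
The Mobp window held 6 SOX matches, all of them ACAAAG on the opposite strand, the Cnp window held 1 SOX and 1 Myrf match, and the Ugt8a and Cldn11 windows held 0 of either. Of 32851 promoter windows of this length, 25.2% held a SOX match and 5.93% a Myrf match. The Ugt8a window was 76.8% G or C and the Mobp window 40.8%. A match is a run of letters and not a site, and the 4 genes shared neither motif in this window.

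Ugt8a, the ceramide galactosyltransferase that makes the main glycolipid of myelin, had the smallest p of the members. Its signal was 12.46, 12.19 and 11.70 on WT replicates 1, 2 and 3 and 13.21, 13.25 and 12.93 on SOD1 replicates 1, 2 and 3. The lowest SOD1 array lay above the highest WT array, and the SOD1 arrays spread less than the WT arrays. The change was 1.01 ± 0.25 (95% interval 0.47 to 1.55, limma, unadjusted p = 0.00171, adjusted p = 0.123). In deposited units the signal ran from 3411 to 5667 in WT and from 7664 to 9559 in SOD1. With the Xist signal as a covariate the change was 0.79 ± 0.31 (limma, adjusted p = 0.287).

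Fa2h, the fatty acid hydroxylase whose product Ugt8a can use, gave the opposite sign. Its signal was 11.10, 10.54 and 10.00 on the WT arrays and 10.33, 9.91 and 10.00 on the SOD1 arrays. WT replicate 1 was the highest and the groups overlapped, as WT replicate 3 sat within the SOD1 values. The change was -0.47 ± 0.36 (95% interval -1.25 to 0.32, limma, adjusted p = 0.580), so the interval holds 0, and it was -0.19 without WT replicate 1 and -0.74 without WT replicate 3.

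Cldn11 encodes the claudin that forms tight junction strands between the wraps of the sheath. It read 11.46, 11.35 and 10.79 on the WT arrays and 12.02, 11.99 and 12.85 on the SOD1 arrays. SOD1 replicate 3 was the highest by a margin, and the other 2 SOD1 arrays still lay above all WT arrays. The change was 1.08 ± 0.31 (95% interval 0.40 to 1.77, limma, unadjusted p = 0.00523, adjusted p = 0.162). It was 0.80 when SOD1 replicate 3 was left out. With Xist as a covariate it was 1.49 ± 0.37 (limma, adjusted p = 0.126).

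Cnp, the cyclic nucleotide phosphodiesterase that keeps cytoplasmic channels open in non-compact myelin, was read by 3 probe sets, and in each of them all SOD1 arrays lay above all WT arrays. That order was found for 9 of the 22 myelin probe sets and for 10.5% of all probe sets, and the opposite order for 0 of the 22 and for 9.81% of all. The probe set with the highest signal (1437341_x_at) was at 15.60, 15.62 and 15.38 in WT and 15.89, 16.05 and 15.98 in SOD1, with an SD of 0.13 in WT and 0.08 in SOD1. Its change was 0.44 ± 0.11 (95% interval 0.19 to 0.68, limma, unadjusted p = 0.00242, adjusted p = 0.137). The scaling altered its size but not its sign, since it was 0.56 on the deposited values and 0.67 after median centring. The other Cnp probe sets gave 0.70 ± 0.26 and 0.51 ± 0.31.

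**Figure D1:**
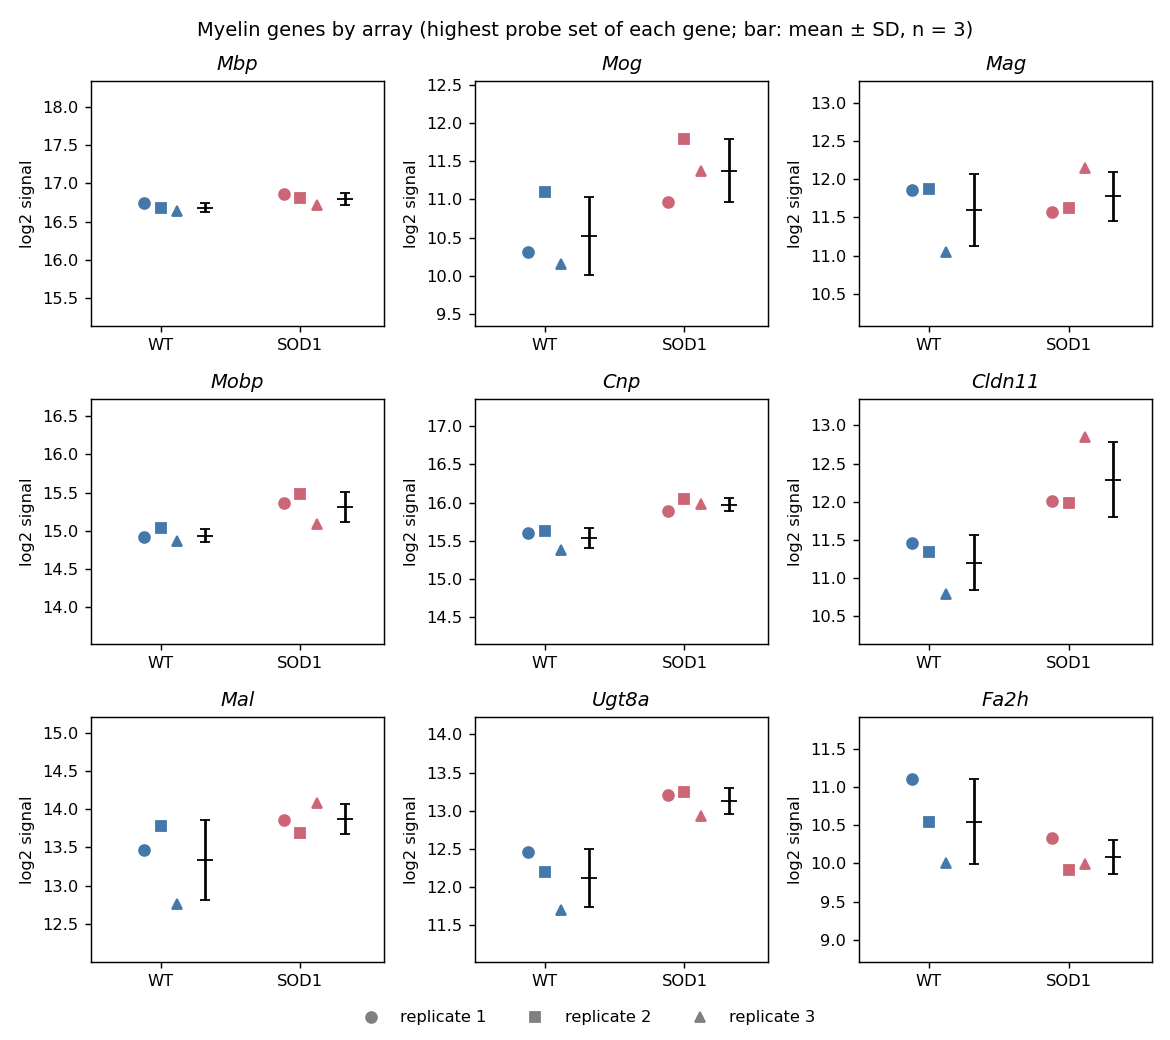
Log2 signal (y axis, each panel spanning the same range of log2 units) of the highest probe set of each of the 9 genes on the WT and SOD1 arrays (x axis), with symbols for replicates and the mean ± SD of 3 arrays beside them. All SOD1 points lie above all WT points for Mobp, Cnp, Cldn11 and Ugt8a, while Fa2h has the lower mean in SOD1.

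Mobp and Mbp are basic proteins on the cytoplasmic side of compact myelin, and Mbp is the one that myelin needs to compact. Mobp had 4 kept probe sets, all with estimates above 0. The highest (1433785_at) read 14.91, 15.03 and 14.86 in WT and 15.37, 15.47 and 15.09 in SOD1, which did not overlap. Its change was 0.37 ± 0.14 (95% interval 0.07 to 0.68, limma, unadjusted p = 0.0194, adjusted p = 0.246), and with Xist as a covariate it was 0.19 ± 0.16. A second probe set (1421010_at) read 12.94, 12.33 and 11.83 in WT and 13.35, 13.37 and 13.11 in SOD1, again without overlap, a change of 0.91 ± 0.27 (limma, unadjusted p = 0.00674, adjusted p = 0.174). The remaining pair overlapped between groups, at 0.38 ± 0.36 (1436263_at) and 1.00 ± 0.52 (1450088_a_at). Both had their lowest value on WT replicate 3, and without that array the first was at -0.07 and the second at 0.37.

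Mbp, which also gives rise to longer golli transcripts made outside mature myelin, was read by 8 probe sets that did not tell a single story. Its 4 brightest probe sets lay above the 99th percentile of signal and gave small changes of 0.11 to 0.14, none with an unadjusted p under 0.05. The brightest (1436201_x_at) read 16.74, 16.68 and 16.63 in WT and 16.86, 16.81 and 16.71 in SOD1, and the groups overlapped. On this scale the change was 0.11 ± 0.08 (95% interval -0.07 to 0.29, limma, adjusted p = 0.574). The size depended on the scaling. The deposited signals of that probe set were 101572, 97076 and 96324 in WT and 122026, 127677 and 113035 in SOD1, so the groups did not overlap before quantile normalisation. The change was 0.30 on the deposited values and 0.40 after median centring, in neither case past the threshold. The other 3 of these probe sets were at 0.31 to 0.33 on the deposited values, again with no call.

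The dimmer Mbp probe sets disagreed with each other. One (1451961_a_at) read 9.39, 9.93 and 9.20 in WT and 10.02, 10.32 and 10.89 in SOD1 without overlap, a change of 0.90 ± 0.37 (limma, unadjusted p = 0.0322, adjusted p = 0.292). Another (1425263_a_at) read 11.09, 10.13 and 8.75 in WT and 9.31, 8.51 and 9.64 in SOD1, a change of -0.84 ± 0.56 whose interval ran from -2.07 to 0.40. The estimates thus had opposite signs within 1 gene. The probe sets 1425264_s_at and 1419646_a_at gave 0.49 ± 0.58 and 0.35 ± 0.33 with overlapping groups. Which Mbp transcripts each probe set reads is not given in the sources used here. An identifier ending in _a_at marks probes shared by transcripts of 1 gene, and _s_at or _x_at marks probes that may be shared with other transcripts. Of the 24 in all, 15 ended in _a_at, _s_at or _x_at, most of them in _a_at.

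**Figure D2:**
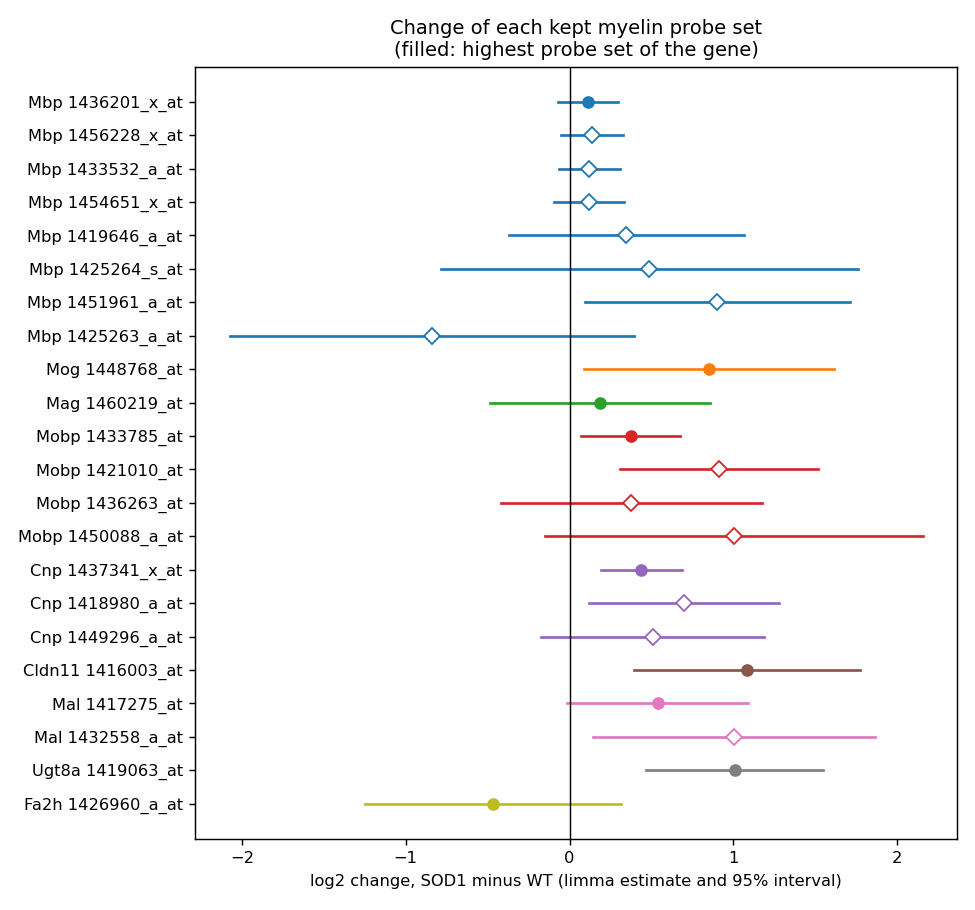
Log2 change, SOD1 minus WT (x axis), with its 95% interval from limma for each of the 22 kept probe sets (y axis), coloured by gene and filled for the highest probe set of the gene. The estimates lie above 0 except for 1 Mbp probe set (-0.84) and Fa2h (-0.47), and the intervals of the dim probe sets are the widest.

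Mog and Mag are surface glycoproteins with immunoglobulin domains, Mog on the outermost layer of the sheath and Mag on the innermost membrane that faces the axon. Mog read 10.31, 11.10 and 10.15 in WT and 10.97, 11.79 and 11.37 in SOD1. WT replicate 2 lay above SOD1 replicate 1, so the groups overlapped by that array. The change was 0.85 ± 0.35 (95% interval 0.09 to 1.62, limma, unadjusted p = 0.0317, adjusted p = 0.290). Mag read 11.85, 11.87 and 11.05 in WT and 11.57, 11.62 and 12.14 in SOD1. Its change was 0.18 ± 0.31 (95% interval -0.49 to 0.86, limma, adjusted p = 0.820), and the sign turned to -0.08 without WT replicate 3. The interval of Mag does not reach the estimate of Ugt8a, but the difference between the 2 genes was not tested.

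Mal is a small proteolipid of lipid-rich membrane domains, made in oligodendrocytes and Schwann cells. The highest of its 2 probe sets (1417275_at) read 13.47, 13.78 and 12.76 in WT and 13.86, 13.69 and 14.08 in SOD1, with WT replicate 2 above SOD1 replicate 2. Its change was 0.54 ± 0.25 (95% interval -0.01 to 1.09, limma, unadjusted p = 0.0548, adjusted p = 0.353). The other (1432558_a_at) was at 1.00 ± 0.39 (limma, unadjusted p = 0.0261, adjusted p = 0.271). Both were lowest on WT replicate 3, without which they were at 0.25 and 0.49.

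WT replicate 3 stood low among the arrays for most members. For all of the 9 genes but Fa2h, the minimum over the 6 arrays fell on WT replicate 3 (8 genes), as it did for 15 of the 22 kept probe sets and for 18.9% of all probe sets tested. The mean over the 9 genes was 13.10, 13.13 and 12.59 on the WT arrays and 13.34, 13.40 and 13.46 on the SOD1 arrays. The 2 higher WT arrays lay within 0.24 of the lowest SOD1 array, while WT replicate 3 lay 0.51 or more below the other WT arrays. The same array was also the lowest of the WT arrays for the mean of the microglial, astrocyte, precursor, and endothelial and mural lists, at 8.29, 12.42, 9.20 and 10.37, but not for that of the motor neuron list, at 13.47. The part of other cells in the myelin values of this array was not tested. Without it, 6 of the 22 myelin probe sets were higher at an unadjusted p under 0.05 (against 6.76% of all), 1 was lower (1425263_a_at of Mbp, at -1.46, against 7.03% of all), and 18 had an estimate above 0 (against 49.5% of all). The change was then 0.80 for Ugt8a, 0.88 for Cldn11, 0.36 for Cnp, 0.34 for Mobp and 0.67 for Mog.

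**Figure D3:**
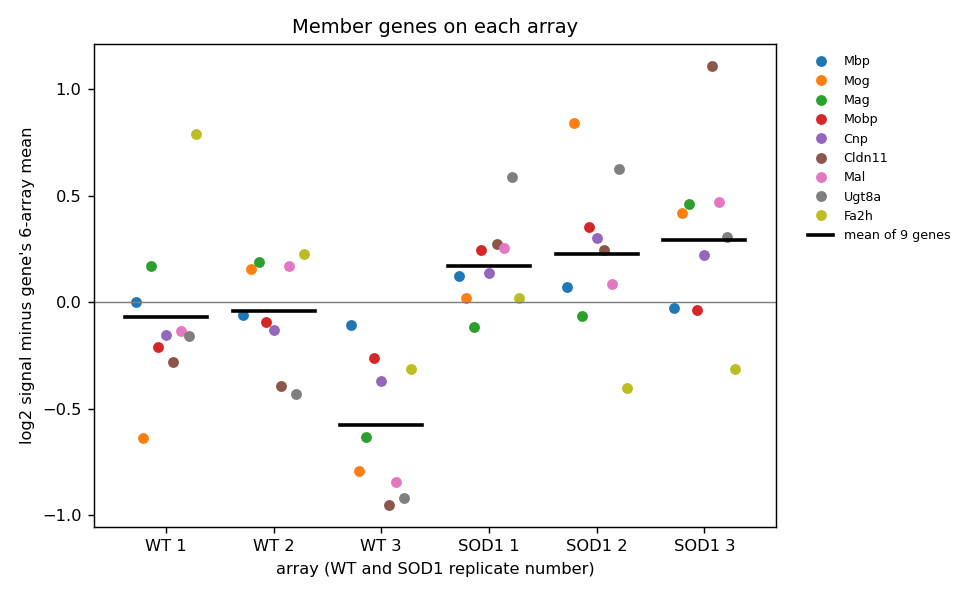
Log2 signal of each of the 9 genes minus its mean over the 6 arrays (y axis) on each array (x axis), 1 point a gene, with a bar at the mean of the genes. WT replicate 3 holds the lowest point of 8 genes, and the 3 SOD1 arrays have bars above those of all WT arrays.

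**Figure D4:**
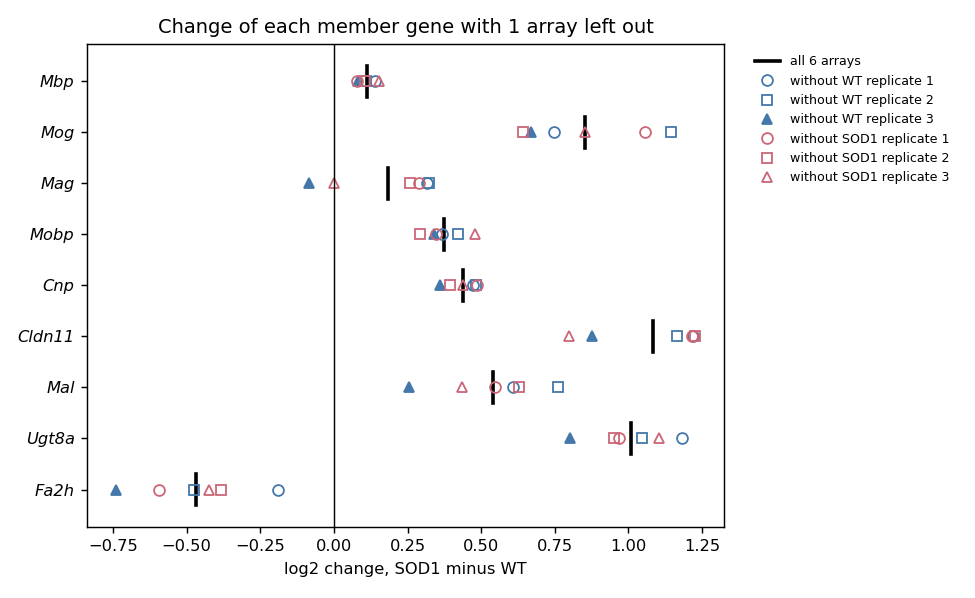
Log2 change, SOD1 minus WT (x axis), of the highest probe set of each gene (y axis) with all 6 arrays (bar) and with each array left out (points). Mag reaches -0.08 without WT replicate 3, and the estimates of Ugt8a, Cldn11, Cnp, Mobp, Mog and Mal stay above 0 whichever array is left out.

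The members varied together across the arrays only in part. Over the 36 pairs of genes the median Pearson correlation across the 6 arrays was 0.62, with 31 pairs above 0, and it was 0.47 once each gene was centred within its group. The 6 arrays share 2 groups and the low WT array, so these values only describe these arrays. Among 13114 other genes, those most like the mean of the 9 were Plaat3, a phospholipase (r = 0.996), E330020D12Rik (0.995), Ostc, a subunit of the oligosaccharyltransferase complex (0.994), Pik3ap1, an adaptor of immune cells (0.994), Slfn8 (0.991) and Cd52, a leukocyte surface antigen (0.990), and 97 genes exceeded 0.95. On WT replicate 3, whose background level was 7.23, E330020D12Rik, Pik3ap1, Slfn8 and Cd52 were below background, so the likeness of these 4 rests in part on a value that gives no level. Cd52 was at 9.39 and 10.05 on the other WT arrays and at 12.36 to 12.73 in SOD1.

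The median change over the 9 member genes was 0.44 and that over 38 further genes of mature oligodendrocytes was 0.37, against -0.01 over all 13123 genes tested. Of the 38, 0 passed the limma test over the whole array, and 29 had an estimate above 0, against 49.0% of all genes tested. At an unadjusted p under 0.05 by limma, 10 were higher and 2 lower, against 7.1% and 7.56% of all probe sets. All SOD1 arrays lay above all WT arrays for 9 and below for 1, against 10.5% and 9.81% of all probe sets. Here and in the lists below, each gene is counted by 1 probe set, while these shares cover all kept probe sets. Cd9, a tetraspanin that other cells also make, had the largest change at 1.65 ± 0.35 (limma, adjusted p = 0.0984). It read 10.93, 11.87 and 10.47 in WT and 13.12, 12.50 and 12.61 in SOD1. Ermn, a cytoskeletal protein of myelinating processes, was at 1.05 ± 0.32 and Car2, carbonic anhydrase, at 0.59 ± 0.16, both with all SOD1 arrays above all WT arrays. Cntn2, a contactin of the region beside the node, was at -0.77 ± 0.27 with all SOD1 arrays below, and Cryab, a small heat shock protein, at -0.47 ± 0.20. Without WT replicate 3 the median of the 38 was 0.20 and that of the members 0.34, and with Xist as a covariate they were 0.16 and 0.42.

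Genes of earlier stages of the lineage were centred near 0. Of 16 precursor and lineage genes tested, 0 passed. Among them, 8 had an estimate above 0 (against 49.0% of all genes) and 8 below, and the median was -0.04. Its sign depended on the arrays, as it ran from -0.23 without WT replicate 3 to 0.20 without WT replicate 2, and was also above 0 without WT replicate 1 (0.09), SOD1 replicate 2 (0.16) or SOD1 replicate 3 (0.08). Olig1, Olig2 and Sox10, transcription factors of the lineage, were at 0.13 ± 0.22, -0.14 ± 0.40 and -0.13 ± 0.40, and Pdgfra, the growth factor receptor of precursors, was at -0.12 ± 0.71. Ptprz1, a receptor phosphatase that astrocytes also make, was at 0.97 ± 0.28 and Vcan, a matrix proteoglycan, at 1.56 ± 0.63, both with all SOD1 arrays above all WT arrays, although Vcan was at the background level on 1 WT array. Lhfpl3 was at 0.59 ± 0.28 and Tcf7l2, a factor of differentiating oligodendrocytes, at -0.75 ± 0.51. All SOD1 arrays lay above all WT arrays for 4 of the 16 and below for 2, against 10.5% and 9.81% of all probe sets. The difference between precursor and mature genes was not tested.

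Enzymes that act beside Ugt8a and Fa2h in sphingolipid metabolism were spread around a median of 0.19 over 22 genes (0.09 without WT replicate 3), of which 0 passed. Sptlc1, a subunit of the first enzyme of the pathway, was at 0.82 ± 0.29, Asah1, acid ceramidase, at 0.47 ± 0.17 and Scd1, a fatty acid desaturase, at 0.54 ± 0.22, each with all SOD1 arrays above all WT arrays. That order was found for only these 3 of the 22 genes and the opposite order for 0, against 10.5% and 9.81% of all probe sets. Galc, the lysosomal enzyme that breaks down the product of Ugt8a, read 11.35, 10.95 and 11.12 in WT and 8.46, 7.70 and 11.42 in SOD1, a change of -1.95 ± 0.74 (limma, unadjusted p = 0.0239, adjusted p = 0.264). SOD1 replicate 3 lay with the WT arrays, apart from the other SOD1 arrays, and without it the change was -3.04 (limma, adjusted p = 0.0352). The SOD1 arrays then left, replicates 1 and 2, were those with the high Xist signal. Genotype and sex therefore cannot be told apart in that value. Gal3st1, which turns galactosylceramide into sulfatide, was at -0.0044 ± 0.29.

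Genes of the axon side of the node were centred slightly below 0. Of 16 genes of the node and paranode, the stretches of axon where myelin ends, 0 passed. At an unadjusted p under 0.05 by limma, 4 were lower and 0 higher, against 7.56% and 7.1% of all probe sets. An estimate below 0 was found for 13 and above 0 for 3, against 49.0% of all genes above 0. All SOD1 arrays lay below all WT arrays for 3 and above for 0, against 9.81% and 10.5% of all probe sets. The median was -0.12, while with median centring 7 of the 16 were above 0 and the median was -0.03. Scn8a, the sodium channel of nodes, was at -1.01 ± 0.21 and Ank3, the ankyrin that anchors it, at -0.55 ± 0.12, both with all SOD1 arrays below all WT arrays, and Scn8a passed the threshold without SOD1 replicate 1 (-1.24, limma, adjusted p = 0.0486). Kcna2, a potassium channel beside the paranode, was at -0.43 ± 0.17. Neurons make most of these genes, and Cntn2 was counted in both this list and that of mature oligodendrocytes.

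Genes of Schwann cells, which make the myelin of peripheral nerve, had a median of -0.07 over 8 genes with 0 past the threshold. That median ran from -0.33 without WT replicate 3 to 0.03 without SOD1 replicate 3, and was 0.0076 without WT replicate 2. Ncmap, a protein of peripheral myelin, read 10.41, 10.32 and 10.24 in WT and 8.50, 7.85 and 7.40 in SOD1, a change of -2.41 ± 0.41 (limma, unadjusted p = 0.000107, adjusted p = 0.0557) that missed the threshold. It passed with a pseudocount of 64 (limma, adjusted p = 0.0394), with the filter at the 60th percentile (0.0304) and with array weights (0.0352), and reached 0.294 with no variance trend. Fbln5 was at -1.87 ± 0.57, Cdh19 at 1.04 ± 0.40 and Mlip at -0.98 ± 0.66, with Fbln5 and Mlip each at the background level on 1 SOD1 array. Of 12 genes on the list, 10 were on the array under their own symbol.

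Markers of other cells moved with the same contrast. Of 17 microglial markers tested 7 rose, all 17 had an estimate above 0 and the median was 2.73, with a summed signal of 11773 to 48902 in WT and 123577 to 246087 in SOD1 (linear units, highest probe set of each gene). C1qa, a complement subunit, rose by 3.00 ± 0.37 and Ctss, a lysosomal protease, by 2.73 ± 0.35, and the other 5 were Tyrobp, Fcgr3, Ptprc, Ly86 and Cst7, which rose by 2.98 to 5.03. Cst7 was at the background level on 2 WT arrays and Ptprc on 1. The microglial count was 0 with Xist as a covariate, where the median was 2.39 and C1qa was at 2.61 (limma, adjusted p = 0.0672), 0 with no variance trend and without WT replicate 2 or SOD1 replicate 2, 1 without SOD1 replicate 1, 3 without WT replicate 1 and 10 with the replicate number as a block. Of 15 astrocyte markers 2 rose, Gfap (3.38 ± 0.47) and Aqp4 (1.61 ± 0.22), with a median of 0.39 and a summed signal of 264396 to 297008 in WT and 327456 to 339024 in SOD1. The astrocyte count was 0 with Xist as a covariate (Gfap at 2.73, limma, adjusted p = 0.0854), with no variance trend and without WT replicate 2, SOD1 replicate 1 or SOD1 replicate 2, and 1, Gfap, without WT replicate 1. Of 12 endothelial and mural markers 1 fell, the smooth muscle actin Acta2 (-5.02 ± 0.77), Cldn5 of endothelial tight junctions was at -1.80 ± 0.34 (limma, adjusted p = 0.068), all 12 had an estimate below 0, and the summed signal was 32711 to 73235 in WT and 8239 to 24439 in SOD1. Acta2 missed the threshold with a robust variance trend (limma, adjusted p = 0.0903), with no variance trend, when either of WT replicates 1 and 2 was left out, and when either of SOD1 replicates 2 and 3 was. The vessel count was 3 (Acta2, Cldn5 and Vwf) with the filter at the 60th percentile, with array weights or without WT replicate 3, and 2 (Acta2 and Pdgfrb) with Xist as a covariate. The 9 myelin genes summed to 190517 to 217634 in WT and 247495 to 263167 in SOD1, which did not overlap. The same sum over the 38 other mature oligodendrocyte genes did overlap, at 463491 to 563391 in WT and 511742 to 549850 in SOD1. Their mean log2 signal overlapped too, with WT replicate 2 at 12.26 and SOD1 replicates 2 and 3 at 12.25 and 12.21. The median of 15 motor neuron markers was -0.04 (0.09 with median centring), with 0 past the threshold. At an unadjusted p under 0.05 by limma, 5 were lower and 1 higher, against 7.56% and 7.1% of all probe sets. All SOD1 arrays lay below all WT arrays for 5 and above for 1, against 9.81% and 10.5% of all probe sets. Ache, acetylcholinesterase, was at -1.06 ± 0.25 (past the threshold without SOD1 replicate 1, at -1.37). Slc18a3, the vesicular acetylcholine transporter, was at -0.995 ± 0.25. The summed signal of the motor neuron markers was 620299 to 671789 in WT and 560638 to 613369 in SOD1. The part of these other cells in the myelin values was not tested.

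**Figure D5:**
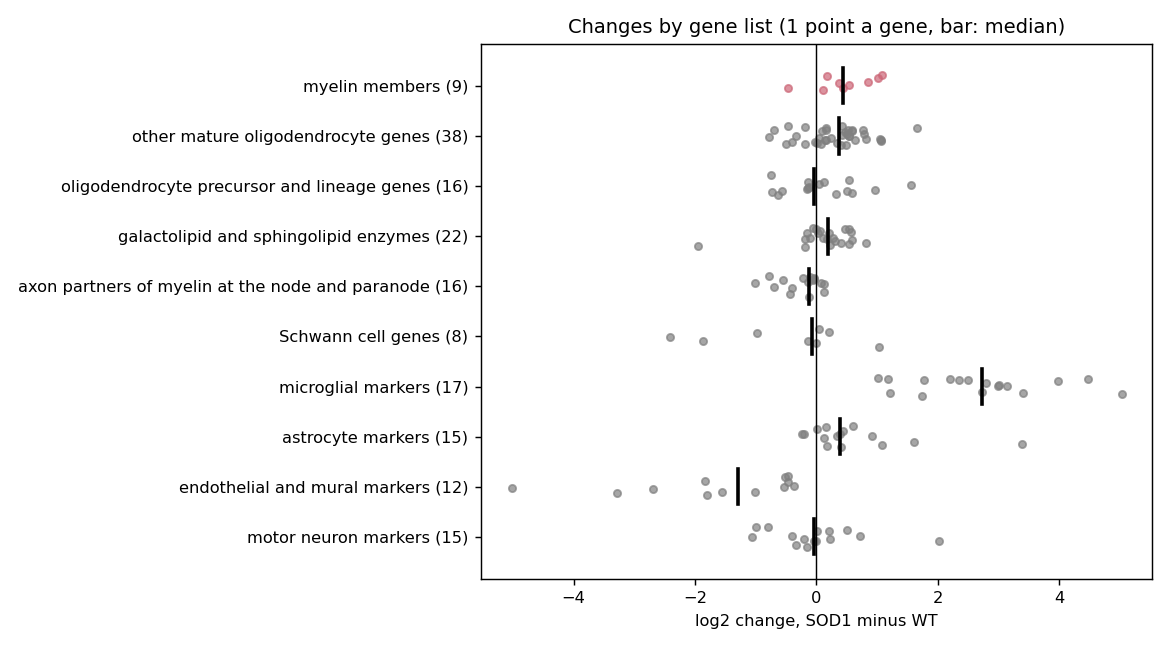
Log2 change, SOD1 minus WT (x axis), of the highest probe set of each gene in 10 gene lists (y axis, number of genes tested in brackets), 1 point a gene with a bar at the median. The myelin members (median 0.44) and the other mature oligodendrocyte genes (0.37) lie near the astrocyte list (0.39) and far below the microglial list (2.73).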

How the data were processed

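One Affymetrix mouse array was used for each of the 6 motor neuron RNA samples (3 WT, 3 SOD1). Per the labels' protocols, the RNA went through repeated T7 amplification, which favours the 3' ends of transcripts and can lower signals far from them. On deposited signals (log2, 16 added), the 3' control of Actb exceeded its 5' control by 4.66 ± 0.39 in WT and 4.68 ± 0.37 in SOD1 (SD, n = 3). For Gapdh it was 3.72 ± 0.70 and 3.57 ± 0.26, with WT replicate 1 the highest at 4.52. How this bears on the member probe sets was not tested. The authors deposited a linear signal intensity for each probe set, and its 2% trimmed mean was 2500.02 on every array, so arrays had been scaled by the authors. The algorithm behind the signals is not given in the sources used. The 64 control probe sets were left out. Arrays were quantile normalised, 16 was added, log2 was taken and the lowest 40% of probe sets by mean signal were dropped. The genotypes were tested with limma 3.58.1 in R 4.3.3 (variance trend, two-sided, Benjamini-Hochberg). The limma step was also run on simulated data with independent noise for each probe set. Those data held no effect shared by a whole array, so they do not speak to arrays such as WT replicate 3. The background level of an array is the 95th percentile over its 27 controls of bacterial origin, on the normalised scale.

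The members and lists were chosen with earlier results of these data known. Named genes are every member probe set, from each other list those past the threshold and up to 4 with the smallest p (2 for microglia, astrocytes, vessels and motor neurons), and the 6 genes most like the members' mean. The promoters shown, Isl1, Isl2, Chat, Nefl, Cryab, Olig1, Olig2, Sox10, Pdgfra, Gal3st1, C1qc, Cd68 and Csf1r were chosen after values were seen. Symbols come from the platform annotation, and promoters from RefSeq. Alternatives were other scalings, pseudocounts, filters, variance models, weights for arrays, a block for the replicate number, Xist as a covariate, and each array left out. Figures were drawn with matplotlib 3.10.9.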

Additional observations from a re-analysis of the deposited data

How the results depend on the processing

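With 3 arrays a group, 0 of the 22 kept myelin probe sets passed at 0.05 by limma in any of the 17 alternatives, the lowest adjusted p being 0.068, for Cnp with median centring. The count over the whole array (50) was 87 with a pseudocount of 64, 106 with a filter at the 60th percentile, 100 with array weights, 76 with the replicate number as a block, 190 at an adjusted p under 0.1 and 0 with no variance trend (3248 at an unadjusted p under 0.05), and it ran from 0 (without WT replicate 2, 2659 at an unadjusted p under 0.05) to 75 (without WT replicate 3) when 1 array was left out. The block changed no call among the members, and the labels do not say that the numbers pair the samples. Over all kept probe sets, the deviations of same-numbered arrays correlated at 0.03, -0.04 and -0.01, which does not describe single genes. Among the microglial and astrocyte markers tested, Tyrobp, Ly86, C1qa, C1qc, Cd68, Csf1r and Gfap fell at each step from replicate 1 to replicate 3 in both genotypes. The others, Aqp4 and Ctss among them, did not. Whether the numbers pair the samples was not tested further. The median of the member genes ran from 0.34 to 0.48 with 1 array left out and reached 0.63 with median centring and 0.67 when all kept probe sets of each gene were averaged instead of taking the highest. With 1 array left out, the change of Mag ran from -0.084 (without WT replicate 3; it was -2.15e-05 without SOD1 replicate 3) to 0.324, and that of the Mobp probe set 1436263_at from -0.070 (without WT replicate 3) to 0.653, both turning sign. The other 20 kept probe sets had the same sign in all 17 alternatives. The 9 probe sets higher at an unadjusted p under 0.05 were 14 with median centring (9.66% of all probe sets), 5 with no variance trend (5.86% of all) and 4 with Xist as a covariate (6.11% of all), a count chosen after seeing the data, and those whose groups did not overlap, 9, were 14 without SOD1 replicate 2, where 15.5% of all probe sets showed that order.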
